A study of Homo sapiens with 4 samples.

Results

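Pol II peaks found at protein-coding promoters in both hairpin lines are described here. A peak was a member if its midpoint lay within 1 kb of the 5′ end of a protein-coding gene span (the transcription start, GENCODE release 44 on GRCh38, chromosomes 1 to 22 and X) and if it shared at least 1 bp with a peak of the other list. The members were thus chosen by the called extents of both lists, so their overlap, width and score are described without a test. In the shLacZ list 1105 peaks were members, out of 1324 promoter peaks and 3916 peaks in all. The shRRN3 list held 1073 members, out of 4372 promoter peaks and 14321 peaks in all. Joined through their overlaps, they formed 1072 shared promoter sites at 1284 genes.

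The cells were SK-OV-3, an established human ovarian cancer line, made stable with a lentiviral shRNA. In the shRRN3 cells the hairpin was directed against RRN3, which brings RNA polymerase I to ribosomal DNA, and in the control cells against LacZ, which human cells lack. Pol II was precipitated from each of the 2 lines, each with an input library, so that 4 samples stood in the labels and 1 Pol II peak list per hairpin entered the comparison. Which RRN3 hairpin was used for this assay is not given in the sources used here, and the inputs were not analysed here. With 1 library per hairpin there was no replicate check: counts and shares describe these lists, every interval (95%) covers counting error only, and a difference between the hairpins cannot be told apart from one between the libraries. The lists carry no read counts, so that the depth behind a peak is unknown.

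Pol II gathers at the start of most active genes before it moves into the gene body. After initiation it commonly pauses a short way downstream of the start until it is released by P-TEFb, and a ChIP peak at the start therefore reports recruited, paused and starting polymerase together. Highly used genes of protein synthesis, chromatin and the cytoskeleton are known for dense Pol II at their starts. Cell type markers were looked up at their starts. PAX8, a factor of the Müllerian lineage kept in many ovarian tumours, had overlapping peaks, with a score of 148 in shLacZ and 354 in shRRN3 and midpoints close to its start. VIM, the intermediate filament of mesenchymal cells, also had overlapping peaks, but the midpoint of its shLacZ peak lay past 1 kb from the start. KRT8, KRT18, EPCAM, MUC1 and FN1 had a promoter peak in the shRRN3 list only, EPCAM not so against its canonical start. ERBB2, KRT7, KRT19, WT1, MUC16, COL1A1 and COL1A2 had none in either list, and ERBB2 held 0 peaks in its whole span. The markers of blood cells, endothelium, hepatocytes and neurons had none. RRN3 itself had no promoter peak in either list, and the lists give no check of the knockdown.

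Sequence at the starts of the shared sites is shown for 3 sets, chosen because the words they hold recur in the results: histone genes with a TATA word, genes with the palindromic word bound by BANP, and ribosomal protein genes with a core ETS word. Each run covers 100 bases before the gene start and 20 bases from it, on the gene's strand, read from the GRCh38 genome, for the highest-scoring shared genes of the set whose run held the word. Capitals mark the word on either strand, except for TATAAA, which was taken on the gene's strand only. Positions give the leftmost base of the word, with the first transcribed base of the gene span as position 0. The TATA word stood at -31 in H2AC11 (chr6:27132943-27133062, + strand), at -28 in its divergent neighbour H2BC11 (chr6:27132776-27132895, - strand), at -29 in H1-4 (chr6:26156229-26156348, + strand) and at -32 in H3C2 (chr6:26032080-26032199, - strand). These genes encode the replication-dependent core and linker histones.
H2AC11: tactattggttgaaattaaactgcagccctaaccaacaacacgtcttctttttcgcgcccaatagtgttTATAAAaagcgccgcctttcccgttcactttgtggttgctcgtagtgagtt
H2BC11: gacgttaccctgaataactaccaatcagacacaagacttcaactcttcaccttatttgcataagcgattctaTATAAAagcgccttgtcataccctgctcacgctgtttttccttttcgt
H1-4: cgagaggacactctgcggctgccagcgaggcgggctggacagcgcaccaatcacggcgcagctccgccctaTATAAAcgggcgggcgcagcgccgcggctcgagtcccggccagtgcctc
H3C2: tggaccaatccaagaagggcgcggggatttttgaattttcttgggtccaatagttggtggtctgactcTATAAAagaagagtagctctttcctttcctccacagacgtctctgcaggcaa

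The BANP word TCTCGCGA, read as TCGCGAGA on the other strand, stood at -2 in POLDIP3 (chr22:42614943-42615062, - strand), at -45 in TADA3 (chr3:9792992-9793111, - strand), at -1 in INTS13 (chr12:26938307-26938426, - strand) and at -55 in RPL12 (chr9:127451387-127451506, - strand). POLDIP3 takes part in mRNA export and translation, TADA3 is a subunit of histone acetyltransferase complexes, INTS13 belongs to the Integrator complex and RPL12 to the large ribosomal subunit. In 3 of these 4 genes the run lay wholly inside peaks of both lists. At POLDIP3 it lay outside, since the peaks there sat upstream, over the start of the spliceosomal RNA gene RNU12.
POLDIP3: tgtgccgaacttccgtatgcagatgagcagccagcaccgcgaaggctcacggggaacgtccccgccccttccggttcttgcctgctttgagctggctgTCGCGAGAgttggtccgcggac
TADA3: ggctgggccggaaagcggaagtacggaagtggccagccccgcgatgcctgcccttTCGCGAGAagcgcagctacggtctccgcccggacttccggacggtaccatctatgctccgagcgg
INTS13: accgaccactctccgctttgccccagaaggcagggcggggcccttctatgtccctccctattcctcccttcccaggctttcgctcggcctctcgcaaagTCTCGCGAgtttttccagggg
RPL12: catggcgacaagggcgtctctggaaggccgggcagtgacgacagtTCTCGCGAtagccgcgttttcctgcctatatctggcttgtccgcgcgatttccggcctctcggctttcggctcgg

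Among the ribosomal protein genes the ETS word CCGGAAG stood at -79 in RPL13A (chr19:49487410-49487529, + strand), at -34 in RPL32 (chr3:12841563-12841682, - strand), at -99 in RPL21 (chr13:27251262-27251381, + strand, where it reads CTTCCGG) and at -63 in RPS21 (chr20:62387003-62387122, + strand). In RPL13A the shared peaks began within the run, which held 69 bases of the shLacZ peak and 56 bases of the shRRN3 peak, and the word lay before both. A word is a match of letters and not a measured binding site.
RPL13A: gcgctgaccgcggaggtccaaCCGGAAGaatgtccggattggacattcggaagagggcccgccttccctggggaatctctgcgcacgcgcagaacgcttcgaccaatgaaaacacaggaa
RPL32: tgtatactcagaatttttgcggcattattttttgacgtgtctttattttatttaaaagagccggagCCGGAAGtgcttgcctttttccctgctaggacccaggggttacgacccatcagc
RPL21: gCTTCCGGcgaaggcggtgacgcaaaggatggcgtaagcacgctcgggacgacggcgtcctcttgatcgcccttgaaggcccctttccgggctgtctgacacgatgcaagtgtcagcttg
RPS21: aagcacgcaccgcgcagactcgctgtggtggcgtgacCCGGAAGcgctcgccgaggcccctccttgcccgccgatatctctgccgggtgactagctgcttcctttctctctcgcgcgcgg

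The members made up 83.5% of shLacZ promoter peaks (interval 81.3 to 85.4%) and 24.5% of shRRN3 promoter peaks (23.3 to 25.8%). These shares follow from the overlap rule and from the unequal sizes of the lists and were not tested. Of 19970 protein-coding genes, 6.43% had a shared site, 17.3% (3458 genes) had a promoter peak in shRRN3 only and 1.05% (210 genes) in shLacZ only. A further 32 genes had peaks in both lists that did not overlap. Members of both lists lay at the starts of 1247 of the 1284 genes, while 25 genes had a shLacZ member and 12 a shRRN3 member only, since the overlapping peak of the other list had its midpoint past 1 kb. At 998 sites 1 peak of each list overlapped. At 43 sites 2 or more shLacZ peaks met 1 shRRN3 peak, at 21 sites 1 shLacZ peak met 2 or more shRRN3 peaks, and at 10 sites both lists had 2 or more. With only peaks scoring at least 65.6, the median shLacZ score, 646 shLacZ members, 636 shRRN3 members and 755 genes were left. With the shRRN3 list cut to its 3916 highest scores, 709 shRRN3 members were left.

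The score, the deposited measure of peak strength whose scale is not named in the sources used here, separated members from the peaks of 1 list. Of the shLacZ promoter peaks in the lowest score quintile of that list 72.5% were members (132 of 182), and in the highest 97.1% (271 of 279). Among shRRN3 promoter peaks the share went from 8.12% in the lowest quintile to 49.7% in the highest. Members lay at a median percentile of 60.6 within the shLacZ list, against 39.2 for shLacZ promoter peaks with no partner. Within the shRRN3 list the medians were 83.5 and 53.8. A score depends on the depth of its library, so that scores of the 2 lists are set side by side below and not compared. Strong peaks of either list were therefore more often members, a description only, because stronger and wider peaks have more chance to overlap.

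Members sat over the start. The nearest start lay inside the peak for 74.8% of shLacZ members, against 62.1% of shLacZ promoter peaks with no partner, a difference of 12.7 percentage points (5.94 to 19.7). For shRRN3 the shares were 85.5% and 71.6%, a difference of 13.8 points (11.1 to 16.4). Members were also wider, and a wider peak holds its start more readily. Midpoints lay within 250 bp of the start for 74.7% of shLacZ and 71.9% of shRRN3 members. That share exceeded that of peaks with no partner by 6.41 points in shRRN3 (3.22 to 9.49) and by 6.17 points in shLacZ, where the interval included 0 (-0.198 to 13.1).

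**Figure D1:**
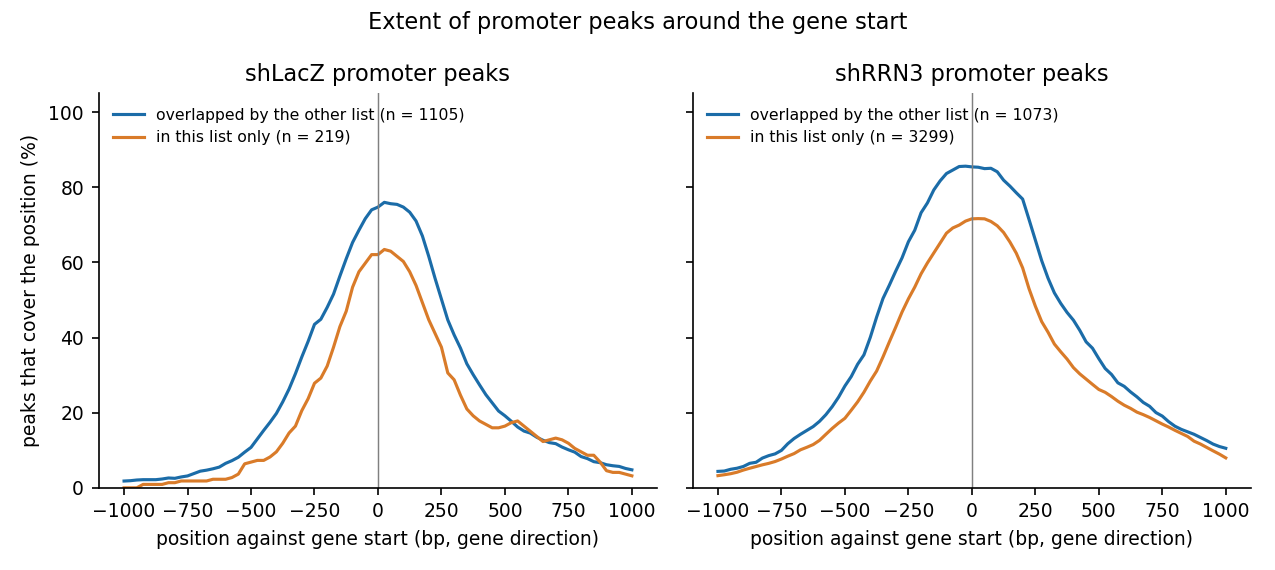
Share of promoter peaks (y axis, percent) that cover each position around the nearest gene start (x axis, bp in the gene's direction, grey line at the start) for the shLacZ list (left) and the shRRN3 list (right), with members in blue and peaks of that list only in orange. Cover was highest at +25 bp for shLacZ members (76.0%) and at -25 bp for shRRN3 members (85.6%), and the orange curves peaked at 63.5% and 71.7%.

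The side of the start on which members were centred depended on the start chosen. Against the gene span, the midpoint of shLacZ members lay at a median of +44 bp (31 to 55, quartiles -77 and 162), with 60.8% of them downstream. For shRRN3 members the median was +21 bp (11 to 36, quartiles -100 and 166), with 55.7% downstream. Against the start of the canonical transcript the medians were 2 bp and -28 bp, so that the shRRN3 members changed side, and 50.4% and 43.0% of midpoints lay downstream. Under both starts the shRRN3 members were centred further upstream than the shLacZ members. At the sites with 1 peak of each list the shRRN3 midpoint lay upstream of the shLacZ midpoint by a median shift of -15.5 bp (-26 to -6).

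Members were wider in the shRRN3 list. The median width was 501 bp in shLacZ (485 to 514, quartiles 370 and 668, range 124 to 2392 bp) and 736 bp in shRRN3 (710 to 758, quartiles 538 and 1016, range 185 to 3063 bp). Promoter peaks with no partner were narrower in both lists, at 372 bp and 578 bp, and width itself raises the chance of an overlap. At the 998 sites with 1 peak of each list the shRRN3 peak was 1.42 times as wide as the shLacZ peak in the median (1.37 to 1.47, quartiles 1.10 and 1.94). It was the wider peak at 832 sites (83.4%) and at least 2 times as wide at 231 (23.1%). The ratio was 1.24 where each peak had to cover 50% of the other, and 1.502 with the shRRN3 list cut to the size of the shLacZ list. It fell from 1.87 in the quintile of sites with the narrowest shLacZ peaks to 1.20 in the quintile with the widest, an order to which sorting on the denominator contributes. Widths of the paired peaks had a Spearman correlation of 0.497 and their score percentiles one of 0.347, over sites that share their 2 libraries.

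**Figure D2:**
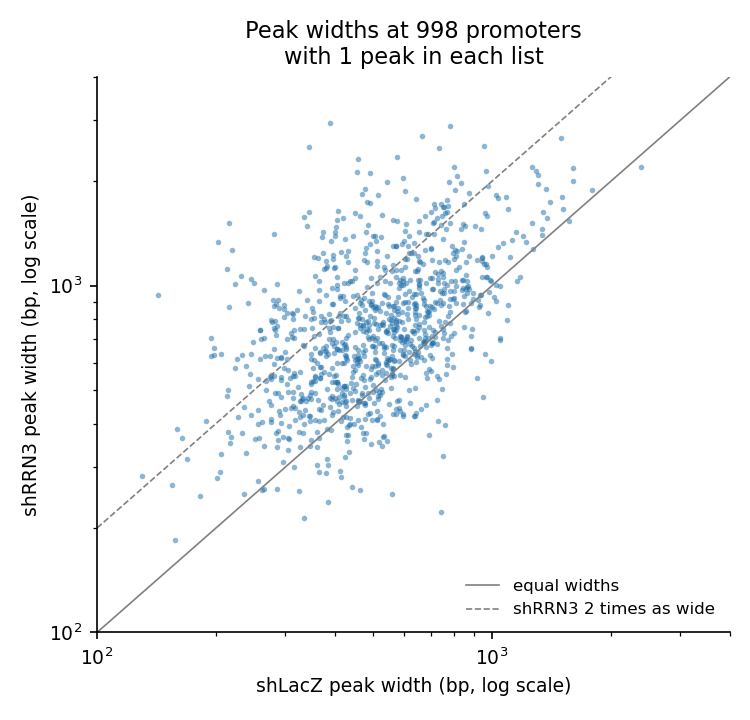
Width of the shRRN3 peak (y axis, bp, log scale) against the shLacZ peak (x axis, bp, log scale) at the 998 promoters with 1 peak in each list, 1 point per promoter, with lines at equal width and at 2 times the shLacZ width. Points above the solid line number 832, and 231 lie on or above the dashed line.

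The added width lay on both sides of the shLacZ peak. The shLacZ peak lay wholly inside the shRRN3 peak at 578 of the 998 sites (57.9%), and the shRRN3 peak inside the shLacZ peak at 51 (5.11%). At 230 sites (23.05%) the shRRN3 peak reached past its partner on the upstream side and fell short downstream, and at 139 (13.9%) the reverse held. The upstream edge lay further out by a median of 93 bp (81 to 108) and the downstream edge by 64 bp (54 to 77). The upstream reach was the larger at 55.7% of sites (52.6 to 58.8%), and at 55.9% of the 801 such sites with 1 gene.

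**Figure D3:**
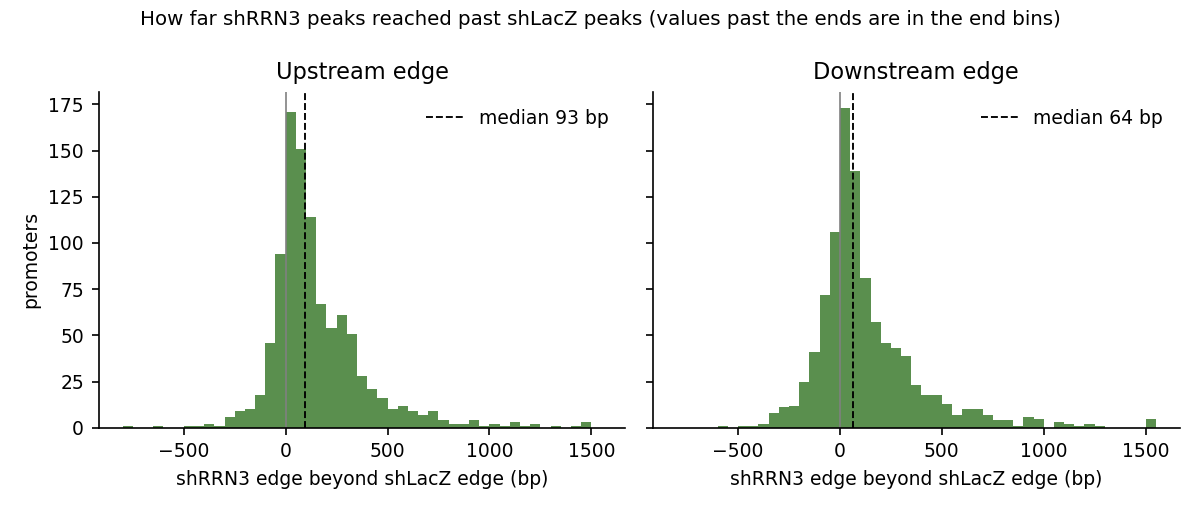
Number of promoters (y axis) by the distance (x axis, bp, bins of 50 bp) from the shLacZ edge to the shRRN3 edge, upstream (left) and downstream (right) in the gene's direction, positive where the shRRN3 peak reached further. The medians (dashed) are 93 bp upstream and 64 bp downstream, and most promoters lie to the right of 0 on both sides.

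The highest-scoring sites belonged to genes of diverse roles. They were ranked by the lower of the 2 score percentiles, each peak ranked within its own list. For each list the strongest peak of the site was taken, whether or not that peak was itself a member. ID1, an inhibitor of basic helix-loop-helix factors, came first, with a shLacZ score of 1421 over 2585 bp and over 5267 bp in shRRN3 the highest score that either list holds. Those were the stronger of 2 shLacZ peaks and the only shRRN3 peak of the site, and their midpoints lay past 1 kb from the ID1 start. The site of HCFC1R1 and of THOC6, a member of the mRNA export complex, followed. There 2 shLacZ peaks met 1 shRRN3 peak. The stronger shLacZ peak scored 824 over 2272 bp, and the other, nearest to CLDN6, scored 600 over 1930 bp. The shRRN3 peak scored 1116 over 4578 bp, with its midpoint past 1 kb from the HCFC1R1 and THOC6 starts. WDR74, which acts in ribosome biogenesis, had scores of 662 and 1579.9 and similar widths (1504 bp and 1797 bp). These peaks were not checked for spliceosomal RNA genes that carry a pseudogene name, which the look-up of non-coding starts left out. TRABD2A, a membrane protease of the Wnt pathway, had a narrower shRRN3 peak, unlike most sites, with a score of 417 over 1179 bp in shLacZ and 330.1 over 1062 bp in shRRN3. At PLK2, a stress-responsive kinase, 1 shLacZ peak scoring 395 over 730 bp met 2 shRRN3 peaks, the stronger scoring 304 over 602 bp.

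RCC1, the exchange factor of Ran, had 6 shLacZ peaks and 2 shRRN3 peaks, and its strongest shLacZ peak scored 382 and its strongest shRRN3 peak 1214, both with midpoints past 1 kb from the RCC1 start. SLC3A2, the heavy chain of amino acid transporters, likewise had 6 shLacZ peaks at a site with 1 shRRN3 peak of 5814 bp, with top scores of 343 and 1026 and the midpoint of the shRRN3 peak past 1 kb from the start. At both sites a run of separate shLacZ peaks thus met longer shRRN3 peaks. At SLC3A2 most of the shRRN3 peak (chr11:62850903-62856716) lay upstream of the start at 62856004, outside the gene. EIF4A2, an RNA helicase of translation initiation, had 3 shLacZ peaks, the strongest scoring 361 over 850 bp, and 1 shRRN3 peak scoring 424 over 2522 bp. EIF1, which guards start codon choice, had 3 shLacZ and 2 shRRN3 peaks with top scores of 354 and 467, the stronger shRRN3 peak past 1 kb from the start. TAF12, a subunit of TFIID, had 2 shLacZ peaks and 1 shRRN3 peak, with top scores of 356 and 800.3. The start of the spliceosomal RNA gene RNU11 lay inside the strongest peak of each list, whose midpoints were 363 bp and 435 bp upstream of TAF12. TUBA1B, an alpha tubulin, scored 322 over 1404 bp and 626 over 1746 bp. C18orf32 scored 299 and 405.

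By width in both lists, ID1 and HCFC1R1/THOC6 again led. The ID1 peaks ranked here and the shRRN3 peak of HCFC1R1/THOC6 had midpoints past 1 kb from the start. They were thus not members, and they were wider than any member of their list. PANK2, a kinase of coenzyme A synthesis, had peaks of 2387 bp and 2205 bp, YARS2, the mitochondrial tyrosyl-tRNA synthetase, of 1787 bp and 1893 bp, and the divergent site of HNRNPUL2 and TTC9C of 1602 bp and 2180 bp. PANK2 and YARS2 thus had nearly the same extent in both lists. The largest width ratio was 7.54 at MYL6, a myosin light chain (389 bp in shLacZ, 2935 bp in shRRN3), followed by 7.29 at PKM, the pyruvate kinase of glycolysis (344 bp and 2507 bp), and 7.04 at PBLD (216 bp and 1520 bp). The histone genes H3C10 and H2AC21 came next, at 6.58 and 6.55. At MYL6 the shRRN3 peak ran 1900 bp further into the gene, and at PKM 1459 bp further upstream. The smallest ratio was 0.300 at YWHAQ, a 14-3-3 protein (743 bp and 223 bp), then 0.428 at MAN2C1, a mannosidase, 0.449 at MRPL14, 0.504 at POLR3D, a subunit of RNA polymerase III, and 0.522 at SUGT1, a chaperone partner.

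Values at the limits of the rule are given for the members just inside and the peaks just outside. In shLacZ the farthest members lay +999 bp from SPDL1 and MUS81, and the nearest overlapped peak outside lay +1001 bp from FAM177A1. In shRRN3 the farthest member lay +971 bp from FERMT2, and the nearest outside +1001 bp from C6orf62. The fewest shared bases were 12 at LAP3, 32 at HYCC2 and 46 at ZSCAN9, against a median of 464.5 bp at the sites with 1 peak of each list. The lower quartile there was 341 bp. Where each peak had to cover 50% of the other, 747 shLacZ members and 908 genes were left, so the minimum of 1 bp did affect the counts.

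Cytosolic ribosomal protein genes had the highest share among 25 classes looked up. Beside the 6.43% of all protein-coding genes, 50 of 79 cytosolic ribosomal protein genes (63.3%, 51.7 to 73.9%) had a shared site. Of the others, 16 had a promoter peak in shRRN3 only, 1 in shLacZ only and 12 in neither. RPL41 led, with a peak of 676 bp scoring 289 in shLacZ and 1268 bp scoring 701 in shRRN3. RPL3 had 2 shLacZ peaks, the stronger of 782 bp, and 1 shRRN3 peak of 1745 bp. RPL24 had peaks of 751 bp and 1366 bp. RPLP0, part of the ribosomal stalk, had peaks of 459 bp and 2315 bp, the latter with its midpoint past 1 kb from the start. At all 4 genes the strongest peak was wider in shRRN3. The median width ratio over the 41 ribosomal protein sites with 1 peak of each list was 1.38, close to the 1.42 of all. The mitochondrial ribosome had 19 of 82 genes (23.2%), led by MRPL18, MRPS35, MRPS16 and MRPL15. Translation factors had 12 of 47 (25.5%), among them EIF3B, a scaffold of the initiation complex, with scores of 248 and 287, and EIF4G2, with 215 and 485. Aminoacyl-tRNA synthetases had 4 of 20 and ribosome biogenesis 9 of 79 (11.4%), with NOP56 and NOP58 of the box C/D snoRNP and the acetyltransferase NAT10 after WDR74. The intervals of these last 2 classes (5.73 to 43.7% and 5.34 to 20.5%) included the 6.43% of all genes. A promoter peak in shRRN3 only was at 33 mitochondrial ribosome genes, 22 translation factors, 11 synthetases and 28 ribosome biogenesis genes. In each of these classes that share was also above the 17.3% of all protein-coding genes. A high share in them was therefore not particular to shared sites.

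Replication-dependent histone genes, which are packed in clusters and transcribed in S phase, had a shared site at 33 of 64 (51.6%, 38.7 to 64.2%). Because neighbours share peaks, these were 24 sites. At the divergent pair H2BC11 and H2AC11, 4 shLacZ peaks met 1 shRRN3 peak of 3063 bp, with top scores of 209.8 and 950.0. H1-4, a linker histone, had scores of 221 and 212 over 506 bp and 643 bp, while H3C2 had 199 and 502. The H3C2 peaks with these scores did not cover its start. Their midpoints lay 656 bp and 858 bp downstream of the start, past the end of this short gene. The H3C2 run printed above lay inside other peaks of both lists. Histone sites were narrow in shLacZ (median 347 bp over 17 sites with 1 peak of each list) and had a median ratio of 1.67. The cluster also showed along the genome: the windows of 1 Mb at 26 to 27 and 27 to 28 Mb of chromosome 6 held 14 and 10 shared sites, the most of any window and the second most, the latter tied with 56 to 57 Mb of chromosome 12, and chromosome 6 had the highest share of genes with a shared site (10.8%). Chromosome X had the lowest (1.28%).

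RNA processing genes were next in number. Splicing factors and hnRNPs had a shared site at 26 of 73 genes (35.6%, 24.7 to 47.7%). A further 23 had a promoter peak in shRRN3 only. The SR proteins led: SRSF3 had scores of 277 and 282 over 477 bp and 1246 bp, SRSF7 of 275 and 421 over 698 bp and 876 bp, and SRSF2 of 205 and 363 over 481 bp and 1432 bp. Factors of 3′ end processing and termination had 9 of 32 (28.1%), with PABPC1, the poly(A)-binding protein, at 182 and 388. Pol II subunits and elongation factors had 8 of 51 (15.7%), led by HEXIM1, the inhibitor of P-TEFb, at 256 and 569. The RNA polymerase I machinery had 2 of 16, TAF1D at 109 and 155 and POLR1G at 83.1 and 76.1. Its interval of 1.55 to 38.3% included the 6.43% of all protein-coding genes. The other genes of this machinery included 7 with a promoter peak in shRRN3 only.

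Immediate early genes, which are induced within minutes by growth signals, had 9 of 22 (40.9%, 20.7 to 63.6%). BTG1 scored 191 and 203, JUNB 160 and 269, JUN 149.97 and 319, and DUSP1, a MAP kinase phosphatase, 149 and 215. Of these 4, JUN alone had a much longer shRRN3 peak (345 bp and 1636 bp), and JUNB a shorter one (616 bp and 499 bp). Heat shock chaperones had 9 of 31 (29.03%), with CCT5, TCP1 and CCT8 of the chaperonin ring and HSP90AB1. Actin cytoskeleton genes had 10 of 38 (26.3%) and a median width ratio of 2.00 over 7 sites. There MYL12A, a myosin regulatory light chain, had 618 bp and 1238 bp, and TMSB4X, which binds actin monomers, 545 bp and 732 bp. COMMD genes, adaptors of endosomal sorting, had 4 of 10: COMMD6, COMMD10, COMMD3 and COMMD1. At COMMD3, 2 shLacZ peaks met 1 shRRN3 peak, so their widths are not a pair. The stronger shLacZ peak was the narrowest member of that list at 124 bp, scoring 64.5. The shRRN3 peak had 285 bp and scored 77.6. BMI1, the neighbour of COMMD3, had a promoter peak in shLacZ only. That peak was centred upstream of BMI1, whose span held the midpoints of 0 shLacZ peaks and 1 shRRN3 peak. COMMD3 ends close before it, at 22320306 of chromosome 10, and BMI1 begins at 22321099.

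Glycolysis had 4 of 19 genes, with GAPDH at 119 and 225 and the transporter SLC2A1 at 57.7 and 55.2. Proteasome subunits had 6 of 34 (17.6%), led by PSMC5, and oxidative phosphorylation 9 of 79 (11.4%), led by NDUFA13. In these 2 classes 10 and 32 genes had a promoter peak in shRRN3 only. Cell cycle and replication genes had 6 of 57 (10.5%), among them MCM4 and MAD2L1, and lysosomal genes 4 of 45 (8.89%). Core autophagy had 5 of 46 (10.9%): SNAP29, ATG10, GABARAP, VAMP8 and ATG101. GABARAP, which coats autophagosomes, scored 109 and 90.2 with midpoints at -638 bp and -584 bp, and ATG10, a conjugating enzyme, 87.4 and 130.0 with midpoints at 75 bp and 17 bp. ATG101, of the initiating kinase complex, had the near-lowest shLacZ score of 50.1 beside 124 in shRRN3, at 627 bp in both. OPTN, BECN1, RPTOR and ATG5 had a promoter peak in shRRN3 only, and against its canonical start BECN1 had none. Müllerian and ovarian markers had 2 of 21, PAX8 and SOX17, and keratins, vimentin and lamins 2 of 12. HOX genes had 2 of 39, HOXB3 and HOXB6, at a single site, and zinc finger genes of chromosome 19 had 16 of 240 (6.67%). No olfactory receptor gene had a promoter peak in either list, 0 of 415, which allows a share of up to 0.723% by 3 counts of the total and 0.885% by the exact interval. The 6.43% of all protein-coding genes lay inside the interval of every class in this paragraph except proteasome subunits and olfactory receptors. For core autophagy the interval was 3.62 to 23.6%. In all, 259 of the 1284 genes fell in any class.

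**Figure D4:**
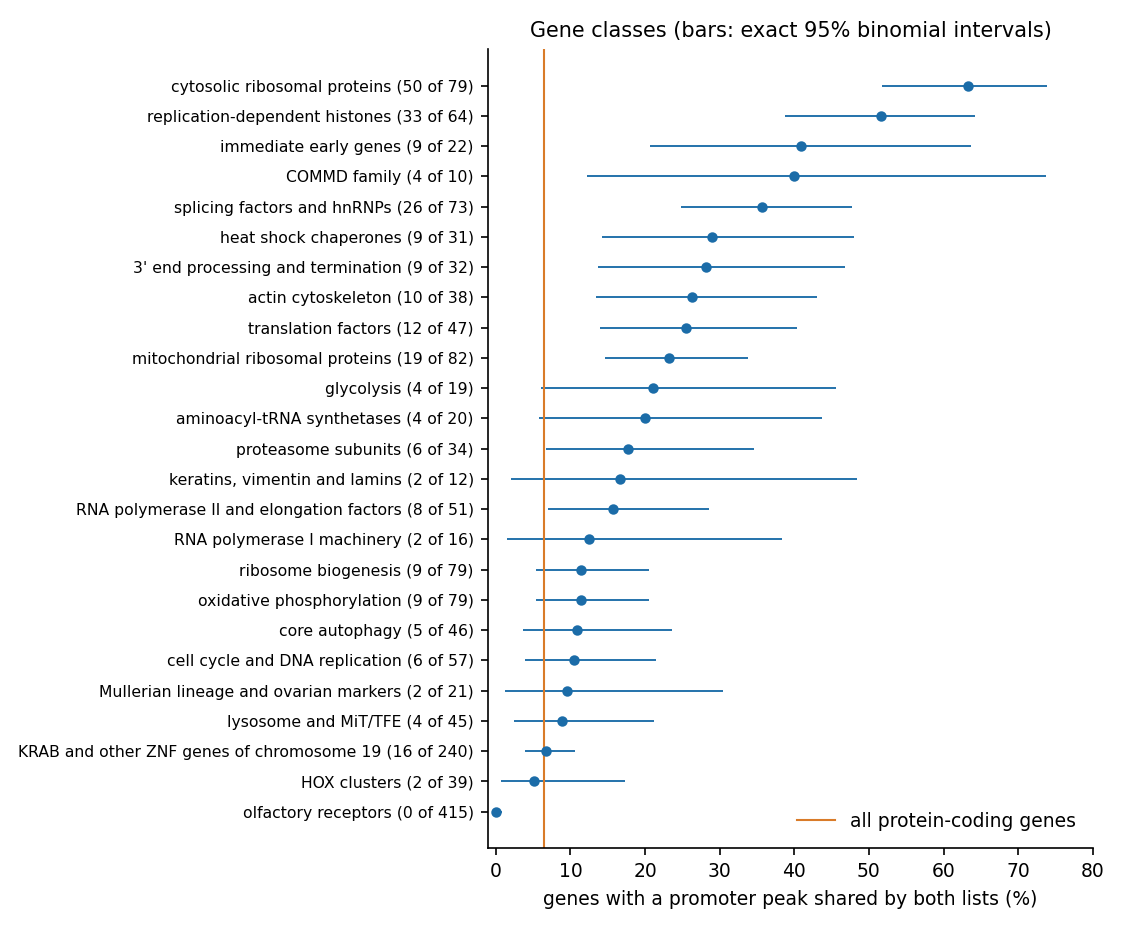
Share of the genes of each class with a shared promoter site (x axis, percent, with exact 95% binomial intervals), the number of genes in brackets, and an orange line at the 6.43% of all protein-coding genes. Cytosolic ribosomal protein genes (63.3%) and replication-dependent histones (51.6%) lie farthest to the right, and olfactory receptors at 0.

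Promoter sequence was compared over the 300 bases from 250 before to 50 after the start. A CpG-rich window, with GC of at least 50% and an observed over expected CpG of at least 0.6, was found at 82.2% of genes with a shared site, against 80.9% of genes with a promoter peak in shRRN3 only, a difference of 1.31 points whose interval included 0 (-1.22 to 3.72). Among genes with no promoter peak the share was 46.6%. Genes with a shared site were shorter than those with a shRRN3 peak only, at a median of 26442 bp (23541 to 28427) and 33702.5 bp (32322 to 35937). Genes with no promoter peak had 25575 bp. At genes of 3 kb or more, a peak with its midpoint within 0.5 kb of the gene's end was found in shLacZ for 2.01% and in shRRN3 for 5.78% of genes with a shared site. For genes with a shRRN3 promoter peak only those shares were 0.812% and 2.53%, lower by 1.20 points (0.447 to 2.19) and 3.25 points (1.93 to 4.801).

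Of 10 words searched on both strands, none of which contains another, 3 were more frequent at shared genes than at genes with a promoter peak in shRRN3 only. TATAAA, the core of the TATA box, was in 10.7% of shared windows and 5.87% of shRRN3-only windows, a difference of 4.799 points (3.02 to 6.75), beside 10.8% of all protein-coding windows and 12.1% of those with no peak. Without the histone genes the shares were 8.71% and 5.75%, a difference of 2.96 points (1.30 to 4.81), and 68.8% of all histone windows held the word. Placed on the gene's strand 40 to 20 bases before the start, TATAAA was at 54 shared genes (4.21%), 21 of them among the 33 shared histones, and at 0.810% of shRRN3-only genes. Over all protein-coding genes it was at 3.03%, over genes with no promoter peak at 3.48% and over shared genes other than histones at 2.64% (1.82 to 3.68%). The histone runs printed above show that placement. With the canonical start it was at 6.38% of shared and 1.08% of shRRN3-only genes, at 4.90% of shared genes other than histones (3.81 to 6.19%) and at 3.95% of all genes. Under both starts the interval of the shared genes other than histones included the share of all genes.

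TCTCGCGA, the word of the BANP factor, was in 5.76% of shared, 2.75% of shRRN3-only and 0.767% of peakless windows, with 1.45% over all. The first 2 differed by 3.02 points (1.72 to 4.51), by 3.16 without histones and by 3.49 with canonical starts. CCAAT, the box bound by NF-Y, was in 42.3% and 37.9%, a difference of 4.44 points (1.30 to 7.59) beside 35.9% of all windows, and in 84.4% of all histone windows. With canonical starts the CCAAT difference was 2.99 points with an interval that included 0 (-0.0198 to 6.04).

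The other words were at like shares in shared and shRRN3-only windows. GGGCGG, the GC box of SP factors, was in 64.5% and 66.2%, CCGGAAG of ETS factors in 22.3% and 23.4%, GCATGCGC of NRF1 in 7.09% and 7.20%, and AAGATGGC of YY1 in 4.91% and 5.84%. Over all protein-coding windows these 4 words were in 52.4%, 11.9%, 3.75% and 3.04%. CACGTG, the E-box, was in 9.11% and 8.96% (8.35% of all), TGACGTCA, the CRE, in 4.21% and 3.53% (2.29%), and TGACTCA of AP-1 in 2.49% and 2.89% (3.99%). Windows of divergent neighbours can overlap, so that genes are not independent.

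**Figure D5:**
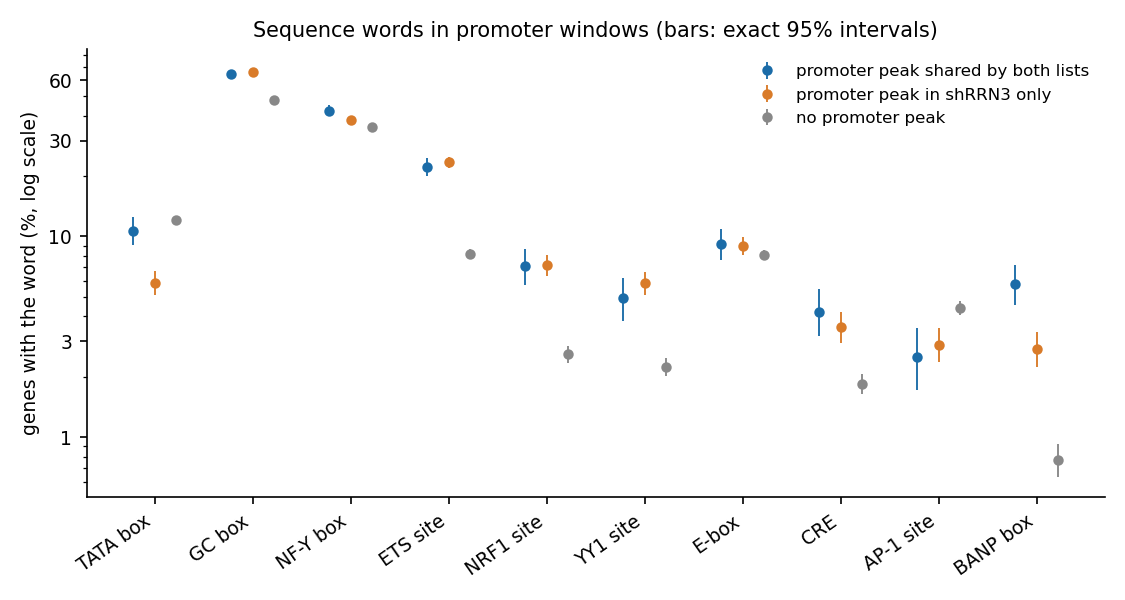
Share of genes (y axis, percent, log scale, exact 95% intervals) whose 300-base promoter window held each of 10 words (x axis, named by the element), for genes with a shared site (blue), with a promoter peak in shRRN3 only (orange) and with none (grey). Blue lies above orange for the TATA box (10.7% and 5.87%), the NF-Y box (42.3% and 37.9%) and the BANP box (5.76% and 2.75%).

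Many shared sites served more than 1 start. There were 857 sites with 1 protein-coding gene, 201 with 2 and 14 with 3 or more, and 106 (9.89%, 8.17 to 11.8%) held divergent protein-coding starts. More than 1 protein-coding start lay within 1 kb of 20% of shLacZ and 19.7% of shRRN3 members. Those shares differed from peaks with no partner by 4.47 points in shLacZ (-1.36 to 9.34) and by 0.204 points in shRRN3 (-2.45 to 3.02), both intervals including 0. Starts of lncRNA genes were inside 18.01% of shLacZ members and 6.85% of shLacZ peaks with no partner, a difference of 11.2 points (6.49 to 14.7). In shRRN3 they were inside 21.99% and 14.9%, a difference of 7.11 points (4.42 to 9.94). Starts of snoRNA or scaRNA genes, most of which lie in introns of host genes, were inside 7 shLacZ and 11 shRRN3 members and in 0 peaks with no partner in either list. That allows a share of up to 1.37% in shLacZ and 0.0909% in shRRN3 by 3 counts of the total, and of 1.67% and 0.112% by the exact interval. The shLacZ difference of 0.633 points had an interval that included 0 (-1.12 to 1.30), and the shRRN3 difference was 1.03 points (0.559 to 1.83). The wider members have more room for such starts. Among 1049 pairs of neighbouring sites on a chromosome, 46 lay within 10 kb of each other.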

How the data were processed

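Pol II ChIP-seq peak lists of the shLacZ and shRRN3 lines were used. The authors deposited each list as coordinates with a score per peak (lowest 50.0, highest 3100.0), called per library, and the submitters' processing notes name hg38. The aligner, peak caller, input subtraction and threshold are not given in the sources used here, so depth is unknown. Overlaps, positions and shares were computed with Python 3.11.15, pandas 2.3.3 and scipy 1.17.1, checked with bedtools 2.31.1 and tested on simulated data, and sequences were read with pysam 0.24.0. Shares have exact Clopper-Pearson intervals, differences Newcombe intervals and medians order-statistic intervals, all 95%. No p-value was computed, as each hairpin had 1 library. Named genes were the 12 sites highest in the lower score percentile, the 5 widest, the 5 highest and 5 lowest width ratios, the 3 edge cases per limit and up to 4 genes per class, named from the top, except 1 gene that is not reported here. The non-coding starts and the word comparisons without histones or with canonical starts were added after seeing the data. The members, gene lists and words were chosen with earlier results of these data known.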

Additional observations from a re-analysis of the deposited data

How the results depend on the processing

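Of 80 values of 14 results under other settings, 64 stayed within their limits, 15 moved and 1 changed direction. Shares and medians had to stay inside the interval of the main setting, while counts had a wider limit. Requiring 50% of both peaks left 747 shLacZ members, 908 genes and 37 cytosolic ribosomal protein genes, counts that passed as unchanged. So did the 857 genes left with the shRRN3 list cut to 3916 peaks. With a window of 500 bp the shRRN3 midpoint was at 8 bp with 52.5% downstream, and 86.0% of genes were CpG-rich. With a window of 2 kb 79.5% were. With canonical starts the midpoints were at 2 bp (50.4% downstream) in shLacZ and at -28 bp (43.0% downstream) in shRRN3, which changed side, and 90.7% of genes were CpG-rich. Requiring 50% of both peaks gave a width ratio of 1.24. Scores of at least 65.6 left 646 and 636 members at 755 genes. The 3916 highest shRRN3 peaks, scoring 103 or more, left 709 members with a ratio of 1.502. Without histones the TATAAA difference was 2.96 points. The causes were not tested. No paired analysis was possible because neither hairpin had a second library.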
